A study of Rattus norvegicus with 3 samples.

Results

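Bins of a rat thymus section that carry an agonist-selected or regulatory T cell (Treg) label were examined within the medulla. The members are 10 µm bins of the 2 medullary regions whose first cell type label was AgoSel1, AgoSel2, Pre-Treg or Treg. They numbered 20676 of 59534 labelled medullary bins (34.7%), in a section of 599178 bins. AgoSel1 was given to 3392 bins, AgoSel2 to 7584, Pre-Treg to 2777 and Treg to 6923. The comparison group was the 10274 medullary bins (17.3% of labelled ones) with a CD4 label, namely 594 Immature CD4-1, 2027 Immature CD4-2, 1857 Mature CD4-1 and 5796 Mature CD4-2 bins. The question was whether the 2 sets of labels lay at different distances from the cortex, beside different amounts of epithelium, or in bins of different depth.

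The study profiled thymi of Lewis rats, an inbred strain, aged 8 weeks, with 1 droplet library of CD45-negative stromal cells, 1 droplet library of thymocytes released with collagenase D and DNase I, and 1 spatial section. The section, 10 µm thick, came from the middle portion of 1 thymus with both lobes side by side, and was measured by Stereo-seq, in which a chip of barcoded spots captures RNA in place. No genetic change or treatment is named for any group. Each group was 1 sample, so no test was run, no p-value is given, and nothing here can be set against the spread between animals. All intervals are 95% intervals that cover counting error only, and since adjoining bins are not independent of each other, the real error is larger.

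The medulla is the inner zone of the thymus, where thymocytes that passed positive selection in the cortex meet medullary epithelial cells (mTECs) that display many of the body's own proteins. Thymocytes whose receptor binds a self peptide strongly receive an agonist signal, which ends in death for some and in diversion into other lineages, Tregs among them, for others. Tregs carry the transcription factor Foxp3 and restrain other T cells, while conventional CD4 thymocytes mature in the medulla and then leave the organ. The authors divided the medulla into an epithelium-containing area (mECA) and an epithelium-free area (mEFA), with 40205 and 19529 bins. The rest of the section was cortex, 413829 bins, and a capsular region of 125615 bins.

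Labels of the section were set by RCTD, a method that fits each bin's counts as a mixture of reference cell types and here gives up to 3 labels per bin. A bin is wide enough to hold parts of several cells, so a label is a call on a small area and not on a cell. The table of the section used here holds labels, scores and totals but no gene values, so the labels could not be checked against markers in the bins themselves. They could be checked in the thymocyte library, where 70 AgoSel1, 58 AgoSel2, 55 Pre-Treg and 37 Treg cells carry the same projected names. These cells were named from their expression, so their genes are a description of the names and are not an independent result.

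Genes of agonist signalling were highest in AgoSel1 cells as a list and Treg genes in Treg cells, and AgoSel2 cells carried genes of both. Levels are UMIs (unique molecular identifiers, each a captured RNA molecule) per 1000000 UMIs of the label (CPM), set against the 484 CD4-labelled cells pooled. Foxp3 stood at 4.52 CPM in AgoSel1 on 2 UMIs, 10.0 CPM in AgoSel2 on 7 UMIs, 51.5 CPM (32.6 to 77.2) in Pre-Treg and 180 CPM (136 to 233) in Treg. In the CD4 cells Foxp3 had 3 UMIs, 0.779 CPM. The Foxp3 UMIs of Pre-Treg came from 7.27% of its cells, against 56.8% of Treg cells. Nr4a1, an early gene switched on by receptor signalling, ran the opposite way. It stood at 1117 CPM in AgoSel1, 331 CPM in AgoSel2, 101 CPM in Pre-Treg and 72.6 CPM in Treg, against 117 CPM in the CD4 cells. The pooled CD4 level mixes stages. Nr4a1 stood at 244 and 217 CPM in Immature CD4-1 and CD4-2, and at 23.6 and 50.2 CPM in Mature CD4-1 and CD4-2. Pre-Treg and Treg thus lay above both mature labels and below both immature ones. Ikzf2 (Helios), a transcription factor of strongly signalled thymocytes and Tregs, was high in all 4 member labels. Its level was 2150 CPM in AgoSel1, 2589 in AgoSel2, 1635 in Pre-Treg and 1449 in Treg, against 153 CPM in the pooled CD4 cells.

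Of the 15 genes of the agonist list, 11 were at least 2-fold above the CD4 cells in AgoSel1, 6 in AgoSel2, 4 in Pre-Treg and 2 in Treg. Over all genes tested, 6.19% were that far above the CD4 cells in AgoSel1, 7.88% in AgoSel2, 2.86% in Pre-Treg and 6.89% in Treg. The median ratio of the list was 4.78 in AgoSel1, 1.53 in AgoSel2, 0.924 in Pre-Treg and 1.04 in Treg, where the median over all genes was 1.05, 1.01, 0.958 and 0.963. Tnfrsf9 (4-1BB), a receptor induced by activation, stood at 384 CPM in AgoSel1, 449 CPM in AgoSel2, 60.4 CPM in Pre-Treg and 262 CPM in Treg, against 9.08 CPM. Bcl2l11 (Bim), which promotes the death of strongly signalled thymocytes, was 8.08 times the CD4 level in AgoSel1, 3.80 times in AgoSel2 and 3.41 times in Pre-Treg. Nr4a3, a relative of Nr4a1, was 7.06, 2.24 and 2.25 times the CD4 level in these 3 labels. Cd69, an activation marker of thymocytes under selection, was 2.62 times the CD4 level in AgoSel1. In AgoSel2 other list members were near or below the CD4 level, with Cd69 at 1.03, Cd5 at 0.555, Id2 at 0.513 and Egr1 at 0.469 times it, values named after they were seen. Pdcd1 (PD-1), an inhibitory receptor, was 10.2 times the CD4 level in AgoSel2, and Id3 in Treg was 0.464 times it.

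All 9 testable genes of the 11 on the Treg list were at least 2-fold higher in Treg, as were 6 of 7 in Pre-Treg, 5 of 6 in AgoSel2 and 3 of 6 in AgoSel1. A gene was testable with 20 UMIs in the label and the CD4 cells together. Foxp3 (57 against 3 UMIs), Capg (33 against 0) and Izumo1r (14 against 7) reached this in Treg through the Treg cells. Foxp3 did so in Pre-Treg (23 against 3). These genes could only be called higher, so the filter partly fixed the Treg and Pre-Treg counts. The list's median ratio was 16.6 in Treg, 2.76 in Pre-Treg, 2.71 in AgoSel2 and 1.77 in AgoSel1. In Treg, Il2ra (CD25, a subunit of the interleukin-2 receptor) was 15.1 times the CD4 level, Ikzf4 (Eos) 25.4 times, Tnfrsf4 (OX40) 7.2 times, Ctla4 6.37 times and Tnfrsf18 (GITR) 4.42 times. Il2rb, another subunit of that receptor, was 27.3 times the CD4 level in AgoSel2, 16.6 times in Treg, 9.63 times in AgoSel1 and 4.99 times in Pre-Treg. Ikzf4 was also 5.53 times the CD4 level in AgoSel2 and 9.40 times in Pre-Treg. Of the 12 genes of CD4 lineage and maturation, 5 were at most 0.5 times the CD4 level in AgoSel1, 6 in AgoSel2, 1 in Pre-Treg and 2 in Treg, where 3.87%, 7.53%, 4.74% and 6.67% of all genes were that low. Cd4 stood at 219, 78.9, 204 and 193 CPM in AgoSel1, AgoSel2, Pre-Treg and Treg, against 287 CPM in the CD4 cells. Klf2, a factor that switches on exit genes, stood at 167, 138, 358 and 230 CPM, against 268 CPM. In AgoSel1 the exit receptor S1pr1, the costimulatory ligand Cd40lg and the interleukin-7 receptor Il7r were 0.251, 0.319 and 0.361 times the CD4 level. In AgoSel2, Cd40lg was 0.250 and the homing receptor Ccr9 0.266 times it. Lower still were Il7r in AgoSel2 (0.0286 times, 5 UMIs) and Cd40lg in Treg (0.209 times, 8 UMIs). Both have fewer than the 10 UMIs asked of named genes and were named after they were seen. In Pre-Treg the chemokine receptor Ccr7, which guides thymocytes into the medulla, was 2.04 times the CD4 level and Rag1 0.427 times it. Treg cells had Ccr9 at 0.262 times the CD4 level. Klf2, S1pr1 and Ccr9 differed between CD4 stages as well. Klf2 stood at 39.1 CPM in Immature CD4-1 and 481 CPM in Mature CD4-1, and S1pr1 at 2.61 and 219 CPM. Ccr9 went the other way, at 571 and 29.5 CPM. AgoSel1, with 29.4 CPM of S1pr1, and Treg, with 53.7 CPM of Ccr9, lay between these values. None of the 5 epithelial markers had a UMI in any of the 4 labels. Of the tested genes on the lists for B, myeloid and innate-like cells, Cd79a alone was over 2-fold, at 2.63 times the CD4 level in Pre-Treg and 4.32 times in Treg, while Ms4a1 was at 0.

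**Figure D1:**
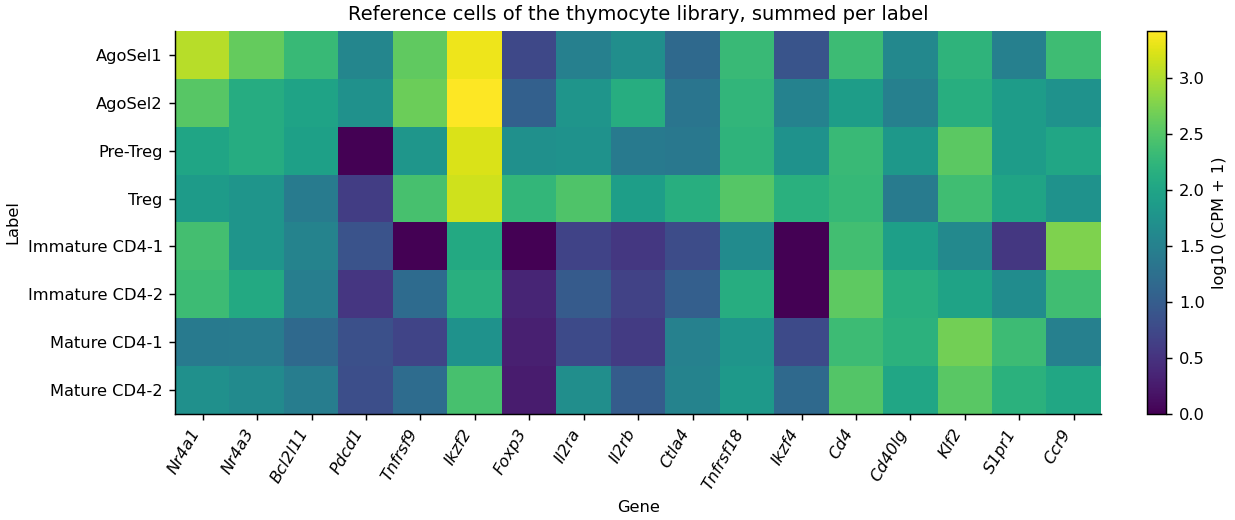
Colour map of log10 (CPM + 1) for genes of the 3 lists (columns) in the thymocyte-library cells of each label (rows), UMIs summed per label, with no error shown and 1 library behind all values. Nr4a1 goes down from 1117 CPM in AgoSel1 to 72.6 CPM in Treg, while Foxp3 goes up from 4.52 to 180 CPM, and Ikzf2 is bright in all 4 member labels.

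Within the medulla the 2 AgoSel labels lay close to the cortex, and Pre-Treg and Treg lay deeper. Distance was measured from each bin to the nearest bin of the cortex. The median was 40 µm for AgoSel1 (quartiles 20 and 72.1 µm), 42.4 µm for AgoSel2 (22.4 and 80.0 µm), 53.9 µm for Treg (28.3 and 90.0 µm) and 58.3 µm for Pre-Treg (28.3 and 99.0 µm). The CD4 labels gave 36.1 µm for Immature CD4-1, 44.7 µm for Immature CD4-2, 58.3 µm for Mature CD4-2 and 64.0 µm for Mature CD4-1, and all labelled medullary bins gave 44.7 µm. In that order the AgoSel labels sat among the immature CD4 labels. Pre-Treg had the same median as Mature CD4-2, and the quartile ranges of all 8 labels overlapped.

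Pooling the members hid this spread. The 4 labels together had a median of 50.0 µm against 53.9 µm for the CD4 labels, a difference of -3.85 µm (-5.21 to -2.49). Distances between bins take set steps and many are tied. The members' median had both bounds at 50.0 µm, and the CD4 median had bounds of 53.9 and 56.6 µm. Against the mature CD4 labels alone, the difference was -18.3 µm (-19.4 to -17.3) for AgoSel1 and -15.9 µm (-17.8 to -13.9) for AgoSel2. For Treg it was -4.46 µm (-6.06 to -2.86), and for Pre-Treg 0.00 µm (-2.29 to 2.29). Against the immature CD4 labels alone, the pooled members lay deeper, by 7.57 µm. With confident labels alone the medians were 40 µm for AgoSel1, 42.4 µm for AgoSel2, 60.0 µm for Treg and 70.7 µm for Pre-Treg, in the same order.

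The order was seen in both areas of the medulla. In mECA the difference from mature CD4 was -12.6 µm for AgoSel1, -12.6 µm for AgoSel2, -2.86 µm for Treg and 0.00 µm for Pre-Treg. In mEFA it was -33.9 µm, -20 µm, -5.97 µm and 0.711 µm (-6.21 to 7.63). The medulla fell into 165 separate areas, of which 30 held at least 50 member and 50 CD4 bins. AgoSel1 lay nearer the cortex than mature CD4 in 28 of 29 such areas that held enough of its bins, and AgoSel2 in 22 of 30, with 3 the other way. Treg lay nearer in 18 of 30 and farther in 9, and Pre-Treg nearer in 16 of 26 and farther in 9. These areas belong to 1 section and are not replicates.

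**Figure D2:**
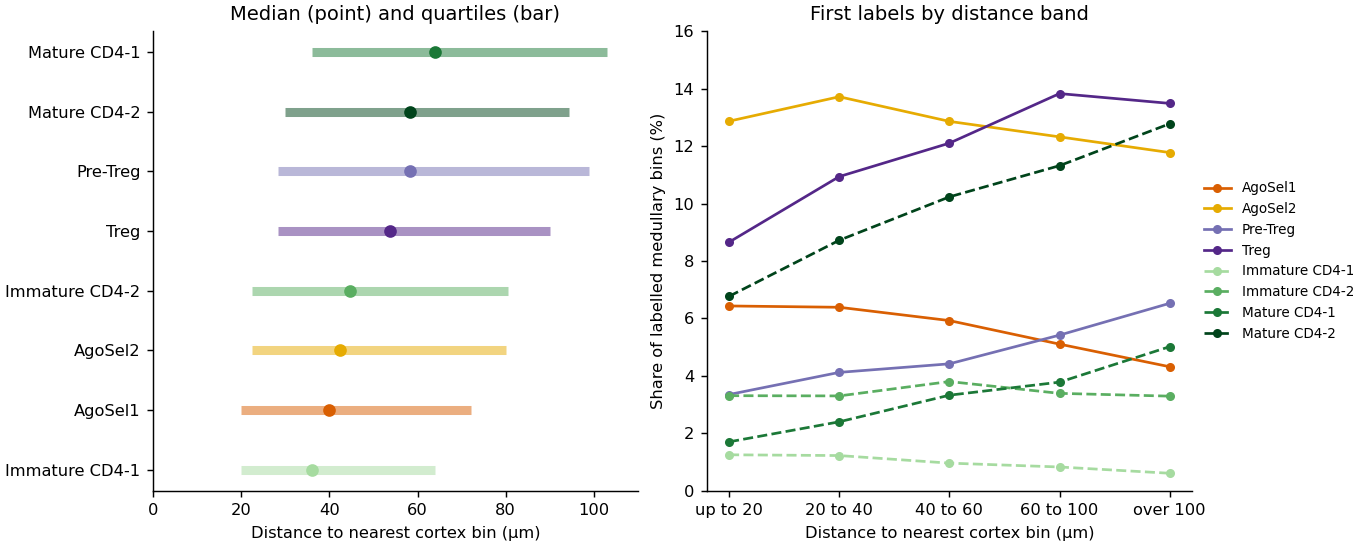
Left, distance from medullary bins to the nearest cortical bin in µm, with the median as a point and the quartiles as a bar for each label. Right, percent of labelled medullary bins with each first label in 5 bands of distance, solid for the member labels and dashed for CD4. AgoSel1 and AgoSel2 have medians of 40 and 42.4 µm, and Treg and Pre-Treg of 53.9 and 58.3 µm.

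The share of bins that each label took changed with depth into the medulla. Within 20 µm of the cortex AgoSel1 made up 6.43% of labelled bins, and beyond 100 µm 4.32%. AgoSel2 varied less, with 12.9% within 20 µm, a highest value of 13.7% between 20 and 40 µm and 11.8% beyond 100 µm. Treg went from 8.66% within 20 µm to 13.8% between 60 and 100 µm and 13.5% beyond. Pre-Treg went from 3.35% to 6.53%. Mature CD4-2, for comparison, went from 6.77% to 12.8% and Mature CD4-1 from 1.70% to 5.02%. All 4 member labels together went from 31.3% within 20 µm to 36.1% beyond 100 µm, and the CD4 labels from 13.0% to 21.7%. Among members and CD4 labels together the members' share thus went down, from 70.6% to 62.5% (61.2 to 63.7).

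**Figure D3:**
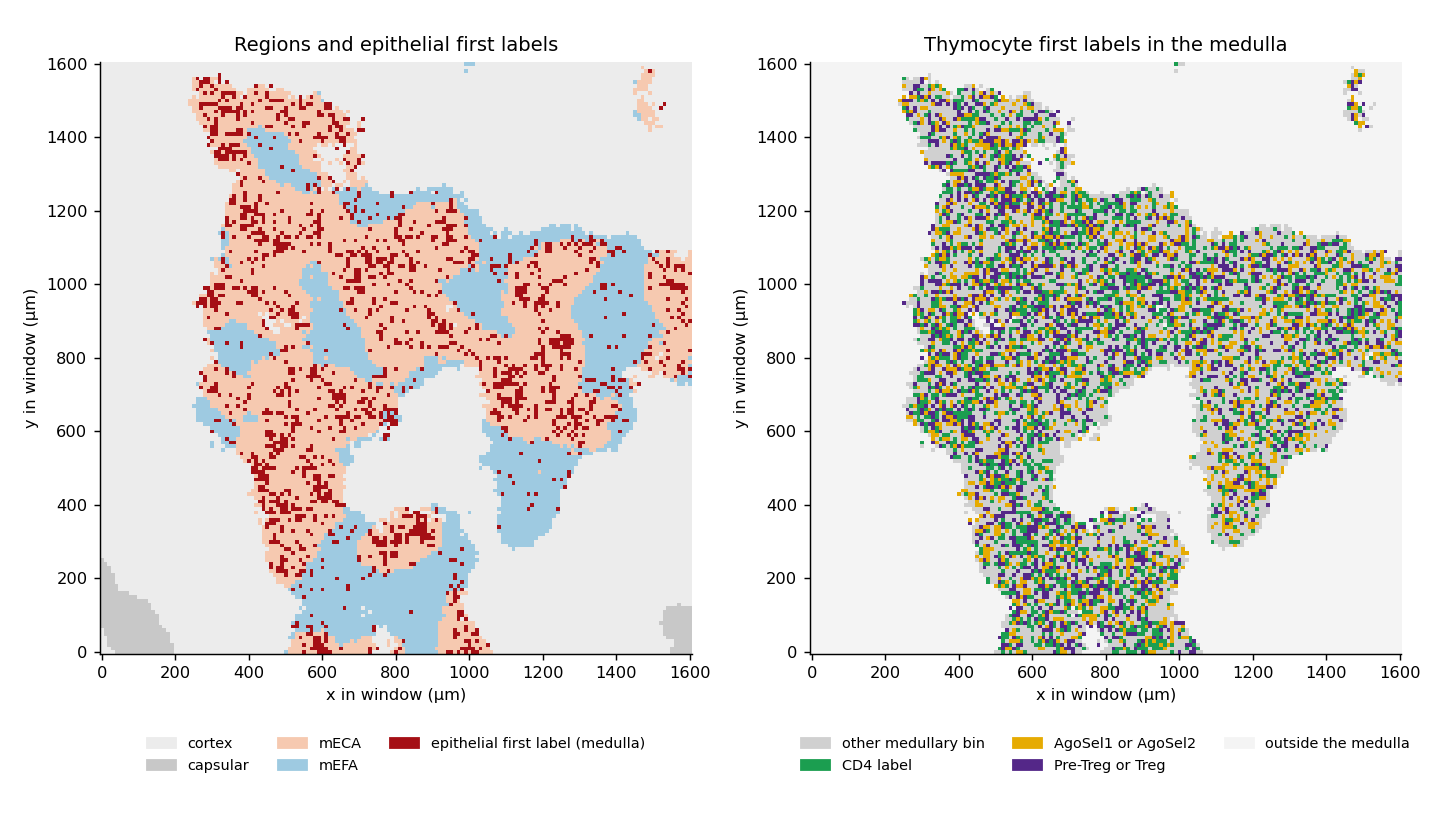
Window of the section, 1600 µm wide, both axes in µm and each square 1 bin. The left map shows the regions and epithelial first labels of the medulla, and the right map the member and CD4 first labels. The window holds 3981 member bins, 1865 of them AgoSel and 2116 Pre-Treg or Treg, beside 2301 CD4 and 1775 epithelial bins, and the thymocyte labels intermingle.

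The members took a larger share in the mECA than in the mEFA. Of member and CD4 bins together, members made up 68.8% in the mECA and 62.7% in the mEFA. The second share over the first was 0.911 (0.895 to 0.927). By label this quotient was 0.849 (0.813 to 0.886) for AgoSel2, 0.876 (0.838 to 0.917) for Treg and 0.935 (0.873 to 1.00) for AgoSel1. Pre-Treg stood at 1.16 (1.08 to 1.25), as did Mature CD4-2, below the 1.59 of Mature CD4-1. The total matters to that direction: set against the CD4 labels alone, without the other member labels, Pre-Treg was at 0.979 (0.914 to 1.05). Because shares within a total depend on each other, the ratios were also taken over all labelled bins, where they were 0.878, 0.906, 0.967 and 1.20 for AgoSel2, Treg, AgoSel1 and Pre-Treg.

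Most member bins also carried an epithelial label in a place after the first (the second or the third). The share was 78.2% (76.8 to 79.6) for AgoSel1, 80.0% (79.1 to 80.9) for AgoSel2, 74.6% (73.0 to 76.3) for Pre-Treg and 81.6% (80.6 to 82.5) for Treg. The CD4 labels lay between 72.7% (Immature CD4-1) and 75.1% (Immature CD4-2). Members together had 79.5% against 74.5%, a ratio of 1.07 (1.05 to 1.08), with Pre-Treg within the range of the CD4 labels. Bins given 1 type, which cannot hold a further label, were 12.1% of member and 14.9% of CD4 bins. In mECA the shares were 85.5% and 81.7%. In mEFA they were still 66.4% and 62.4%. Of the bins within 30 µm of mEFA members, 6.78% had an epithelial first label. Counted in any place, an epithelial label was on 66.1% of these bins and on 63.3% of those around mEFA CD4 bins. The epithelial subsets were counted in the second place alone. There the label that set AgoSel2 apart was mTEC2, in 31.0% of its bins, against 28.4% for AgoSel1, 27.6% for Treg, 24.7% for Pre-Treg and 22.3% for the CD4 labels. For Treg it was the proliferating mTEC label, in 33.8% against 28.5% of CD4 bins. The mTEC1 label was second in 12.7% of member and 14.2% of CD4 bins.

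The same-bin excess was not seen with confident labels. RCTD marks a first label as confident or not, and 13.4% of members were confident (AgoSel1 18.9%, AgoSel2 13.6%, Pre-Treg 12%, Treg 11.1%) against 25.9% of CD4 bins, with Mature CD4-2 at 32.7%. Among the 2770 confident members 58.2% (56.3 to 60.0) had an epithelial partner, against 72.0% (70.2 to 73.7) of 2656 confident CD4 bins, a ratio of 0.809. Among bins without confidence the shares were 82.8% and 75.4%. Bins given 1 type, which cannot have a partner, were 31.8% of confident members and 18.2% of confident CD4 bins. Among bins without confidence they were 9.01% and 13.7%. By label, 67.3% of confident AgoSel1 bins, 55.3% of AgoSel2, 56.3% of Pre-Treg and 55.3% of Treg bins had such a partner, each below its share among bins without confidence. The direction of the comparison with CD4 turned for AgoSel1, AgoSel2 and Treg with confident labels alone. Pre-Treg, level with CD4 over all bins (74.6% against 74.5%), fell below it too, at 56.3% against 72.0%. The order of labels within a bin mattered as well. Where a member label stood in any place, the first label was epithelial in 12.9% (12.5 to 13.3) of bins, against 17.5% (16.9 to 18.2) for the CD4 labels. These are the bins that the choice by first label left out, 3098 with a member label and 2224 with a CD4 label. By label the share was 20.1% for AgoSel1, 17.0% for Pre-Treg, 10.2% for AgoSel2 and 10.2% for Treg, and from 14.3% (Mature CD4-2) to 31.4% (Immature CD4-1) for the CD4 labels. The first label was also not always the one with the largest weight: it was in 99.8% of member bins but in 7.74% of bins with mTEC2 first. An epithelial label in any place was found in 81.6% of bins with a member label in any place and in 78.3% of those with a CD4 label. Whether confidence, label order or the share of bins given 1 type has a part in the same-bin difference was not tested beyond these values.

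The bins around the members gave a measure that does not use the bin's own mixture. Among the bins within 30 µm (60 coordinate units), an epithelial first label was carried by 16.8% around Treg, 16.5% around AgoSel2, 16.1% around AgoSel1 and 14.1% around Pre-Treg. Around the CD4 labels it was 15.4% for Immature CD4-2, 14.9% for Immature CD4-1, 14.5% for Mature CD4-2 and 12.2% for Mature CD4-1. Around all labelled medullary bins, epithelial ones included, it was 17.1%, and around mTEC2 bins 30.9%. On this measure no member label exceeded the medulla as a whole. With an epithelial label in any place, AgoSel2 (80.2%), Treg (79.7%) and AgoSel1 (79.2%) exceeded the medulla's 78.6%, and Pre-Treg (76.9%) did not. By first labels, members exceeded the CD4 labels by a ratio of 1.13 (1.07 to 1.20), and Pre-Treg fell within the CD4 range.

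Against mature CD4 the ratio was 1.20 (1.11 to 1.30) for Treg, 1.18 (1.10 to 1.28) for AgoSel2, 1.15 (1.05 to 1.27) for AgoSel1 and 1.01 (0.908 to 1.13) for Pre-Treg. The labels lie at different distances from the cortex and in different areas, so each was held fixed in turn, and then both. At the same distribution of distances the ratios were 1.18, 1.14, 1.11 and 1.01. Within mECA alone they were 1.13 (1.04 to 1.22) for Treg, 1.10 (1.01 to 1.19) for AgoSel2, 1.07 (0.971 to 1.19) for AgoSel1 and 0.998 for Pre-Treg. Within mECA and at the same distances they were 1.12, 1.08, 1.05 and 0.995. Within mEFA the interval of every label included 1, with Treg at 1.09 (0.879 to 1.34). In the 30 areas with enough bins, Treg was above mature CD4 in 25, with a median ratio of 1.14, and members were above CD4 in 25, with a median of 1.06 and a range from 0.848 to 1.48. With confident labels alone the ratio of members to CD4 was 0.995, with 13.9% around each set. Confidence moved with this result, and its part in it was not tested.

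The excess around the members came from some mTEC labels and not others. Neighbouring mTEC2 labels were 6.23% around members and 5.18% around CD4 bins, and proliferating mTEC labels 6.48% and 5.52%. Neighbouring mTEC1 labels were 3.36% and 3.44%. The authors' score for medullary epithelium, a number per bin with no fixed range, averaged 0.053 over the neighbours of members and 0.034 over those of CD4 bins. By label it was 0.057 for AgoSel2, 0.056 for AgoSel1, 0.054 for Treg, 0.039 for Pre-Treg, 0.051 for Immature CD4-1, 0.049 for Immature CD4-2, 0.033 for Mature CD4-2 and 0.017 for Mature CD4-1. Around all labelled medullary bins it was 0.057.

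**Figure D4:**
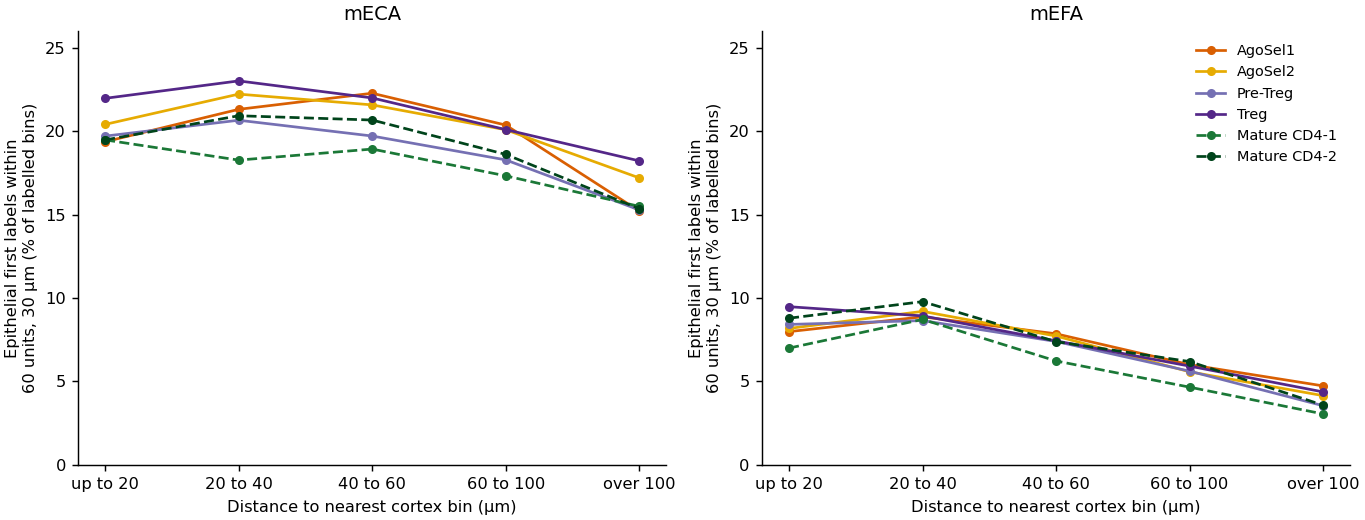
Percent of labelled bins within 30 µm whose first label is epithelial, by distance band to the cortex in µm, for bins of mECA (left) and mEFA (right), the member labels solid and Mature CD4 dashed. Treg lies between 18.2% and 23.0% in mECA and between 4.37% and 9.48% in mEFA, so the areas differ by more than the labels do.

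Bins of each label, member or CD4, lay near their own kind more often than the medullary average. Relative to the share over all medullary neighbourhoods, AgoSel1 was 1.27 times as frequent around AgoSel1, Pre-Treg 1.18 times around Pre-Treg, AgoSel2 1.14 times around AgoSel2 and Treg 1.11 times around Treg. The CD4 labels gave 1.55 for Immature CD4-1, 1.43 for Mature CD4-1, 1.26 for Mature CD4-2 and 1.15 for Immature CD4-2. Around Pre-Treg, Mature CD4-1 was 1.22 times and Mature CD4-2 1.15 times as frequent as on average. Around AgoSel1, Immature CD4-1 was 1.15 times as frequent.

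Depth differed little between the labels on the median, while the number of member bins per CD4 bin varied with it. Median UMIs per bin were 487 (484 to 490) in AgoSel1, 518 (516 to 521) in AgoSel2, 496 (492 to 500) in Pre-Treg and 511 (509 to 514) in Treg. The CD4 labels had medians of 469, 488, 502 and 499 UMIs in the order given at the start, and the whole medulla 507. Members together had 508 against 496, a ratio of 1.02 (1.02 to 1.03). Across 10 equal classes of depth, the number of member bins per CD4 bin went from 1.64 in the shallowest class to 3.34 in the deepest. The members' own share of labelled bins was 27.8% in the shallowest class, 37.1% in the sixth and 31.8% in the deepest, whereas the CD4 share went from 17.0% in the shallowest and 20.3% in the fourth to 9.54% in the deepest. The share of members with an epithelial partner went from 53.8% to 91.9% over the same classes, and that of CD4 bins from 55.2% to 86.6%. Weighted to the same depths, members exceeded CD4 by 1.05 in the same bin and by 1.12 among neighbours.

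**Figure D5:**
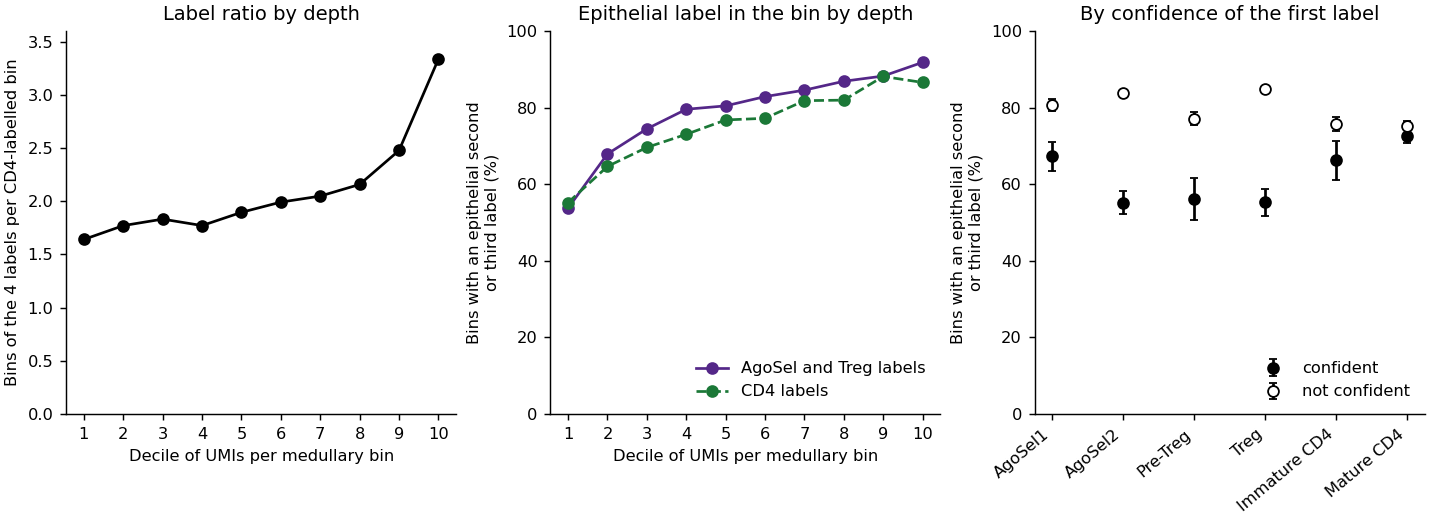
Left, member bins per CD4 bin, and centre, percent of bins with an epithelial label after the first, by decile of UMIs per medullary bin. Right, the same percent for confident (filled) and other (open) first labels, with exact 95% intervals for counting error. The label ratio goes from 1.64 to 3.34, and confident Treg bins lie at 55.3% against 84.8% of the other Treg bins.

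The authors' segmented cell bins, with fewer UMIs each, gave much shorter distances to the cortex. Median distances lay between 23.3 and 28.5 µm for all 8 labels. AgoSel1 was at 23.3 µm in place of 40 µm and Mature CD4-2 at 28.5 µm in place of 58.3 µm. AgoSel1 and AgoSel2 (23.6 µm) still lay nearer the cortex than Treg (26.1 µm) and Pre-Treg (26.2 µm). The place of Treg and Pre-Treg among the CD4 labels changed. Both now lay slightly nearer than Immature CD4-2 (26.5 µm). In the 20-unit bins they lay deeper than it, at 53.9 and 58.3 µm against 44.7 µm. The reason for these differences was not examined. A distance in µm, and the place of Treg and Pre-Treg against Immature CD4-2, thus holds only for the table it was measured in. The median UMIs of the members lay between 229.5 and 249. The epithelial share among neighbours was 16.4% for AgoSel1, 16.2% for AgoSel2, 16.1% for Treg and 14.8% for Pre-Treg, against 13.5% to 15.5% for the CD4 labels. An epithelial label after the first was on 42.4% of AgoSel1, 44.2% of AgoSel2, 38.7% of Pre-Treg and 43.7% of Treg cell bins. The CD4 labels had 34.6% to 41.5%, with Pre-Treg within that range.

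Together the 4 labels were more frequent in the section than in the cell suspension. In the thymocyte library they were 220 of 8546 cells (2.57%, exact interval 2.25 to 2.93%), and in the section 7.74% of all labelled bins, 3.01 times as much. By label the section's share was 4.66 times the suspension's for Treg, 4.55 for AgoSel2, 2.29 for AgoSel1 and 1.19 for Pre-Treg, where 0.764% of bins lay within the counting interval of the cells (0.644%, 0.485 to 0.837%). The CD4 labels were 0.586 times as frequent in the section as in the suspension, which raises the following factors. Per CD4-labelled cell the suspension held 0.455 member cells, whereas the medulla held 2.01 member bins per CD4 bin, 4.43 times as many. By label the factor per CD4 label was 8.81 for Treg, 6.16 for AgoSel2, 2.38 for Pre-Treg and 2.28 for AgoSel1. The CD4 labels taken singly had factors of 2.15 (Mature CD4-2), 0.927 (Immature CD4-2), 0.723 (Mature CD4-1) and 0.210 (Immature CD4-1). Pre-Treg and AgoSel1 were thus close to Mature CD4-2. These factors count all first labels, of which 13.4% were confident among medullary members and 25.9% among CD4 bins. Confident labels left 2770 member bins, 768 of them Treg, beside 2656 CD4 bins. The members' excess per CD4 bin is thus much smaller with confident labels, and the factors hold for all first labels alone. Shares of bins and of cells have different denominators, and the suspension was not cut from the medulla alone.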

How the data were processed

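Labels, regions, weights and totals per 20-unit bin were taken from the authors' deposited table of the section, and the projected cell names from the deposited annotation of the thymocyte library. The UMI and gene totals are counts per the file headers, RCTD weights are deposited as a fraction per label, the authors deposited each area score as a score whose gene list is not used here, and mitochondrial UMIs as a percent per cell. The thymocyte matrix holds deposited whole UMI counts. Per the submitters' processing notes, Cell Ranger 8.0.0, Seurat 5.3.0 and the build mRatBN7.2 were used. The rules behind the regions and the confidence call are not given in the sources used here.

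A coordinate unit was taken as 0.5 µm, the nominal spot pitch. Regions were used as deposited, and 200 medullary bins without a label were left out. Epithelial labels are those the authors name TEC. Shares have exact Clopper-Pearson intervals, ratios log-normal intervals, medians order-statistic intervals and CPM, computed here, exact Poisson intervals, at 95%. Intervals for neighbour shares take the centre bins as n. Genes with at least 20 UMIs in the label and the CD4 cells together were compared, and a label with fewer than 3 UMIs was set to 3 UMIs. Genes named in the text come from 3 lists (agonist signal, Treg, CD4 and maturation): those with at least 10 UMIs and at least 2 times or at most 0.5 times the CD4 level, the 6 with the most UMIs per list and label, and Foxp3, Nr4a1, Cd4 and Klf2. A gene that this rule names is not reported here. Cd79a and Ms4a1 come from lists of markers of other cells and were named after their values were seen. Members and lists were chosen with earlier results of these data known. No doublet caller was run. The 2 droplet libraries shared 38 barcodes, 0.443% of 8574 thymocyte barcodes.

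The functions were tested on simulated grids and counts. Alternatives changed the label rule, comparison group, area, depth, radius, bin type and part of the section. The tools were matplotlib 3.10.9, pandas 2.3.3, SciPy 1.17.1, NumPy 2.4.6 and Python 3.11.15.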

Additional observations from a re-analysis of the deposited data

Results flagged for a closer look

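The same 4 first labels were given to 25181 bins outside the medulla, which no comparison above uses. They are 54.9% of all bins with these labels and 4.73% of the labelled bins there. The 4 labels made up 5.12% of labelled bins in the cortex and 3.44% of those in the capsular region. By label the bins outside the medulla were 7717 AgoSel1 bins (69.5% of that label), 10691 AgoSel2 bins (58.5%), 1744 Pre-Treg bins (38.6%) and 5029 Treg bins (42.1%). Their median depth was 332 UMIs against 508 in the medulla, and 12.6% were confident, against 13.4% in the medulla.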

How the results depend on the processing

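Of 428 recomputed values, 277 kept their direction and size, 134 moved and 17 changed direction. Most of these were values of single labels or single genes. Of those for the pooled results and the gene-list counts, 49 kept direction and size, 43 moved and 7 changed direction. The pooled results are the distance difference (-3.85 µm), the same-bin ratio (1.07), the neighbour ratio (1.13), the UMI ratio (1.02) and the ratio of mEFA to mECA (0.911), all of members over CD4. With AgoSel1 alone the distance difference was -13.9 µm, the same-bin ratio 1.05, the UMI ratio 0.982 and the area ratio 0.830. With AgoSel2 alone these were -11.4 µm, 1.07, 1.04 and 0.817. With Pre-Treg alone they were 4.46 µm, 1.00, 1.00 and 0.979, with a neighbour ratio of 0.986. With Treg alone they were 0.00 µm, 1.09, 1.03 and 0.827. Confident labels gave -10.0 µm, 0.809, a neighbour ratio of 0.995, a UMI ratio of 1.00 and 0.949. Bins at or above the median depth gave -7.32 µm, 1.05 and a UMI ratio of 1.01. Mature CD4 labels alone gave -8.31 µm and a UMI ratio of 1.02, and immature ones 7.57 µm, a neighbour ratio of 1.06, a UMI ratio of 1.05 and an area ratio of 0.985. mECA alone gave -6.27 µm and a same-bin ratio of 1.05, and mEFA alone -6.98 µm. Bins given 1 type gave -6.68 µm, a neighbour ratio of 1.06 and a UMI ratio of 0.995. Cell bins gave a same-bin ratio of 1.09, a UMI ratio of 1.03 and an area ratio of 0.930. The same UMIs gave a same-bin ratio of 1.05, and an epithelial label in any place a neighbour ratio of 1.04. The right part of the section gave a UMI ratio of 1.03, and the left part an area ratio of 0.895. All labelled bins as the total gave an area ratio of 0.942. Chosen after seeing the data, the label with the largest weight gave -0.990 µm, 1.04, a UMI ratio of 1.02 and an area ratio of 0.930, and mECA alone at the same distances a neighbour ratio of 1.07. With the mean of the cells' CPM, 1 gene of the CD4 and maturation list was 2-fold above the CD4 cells in AgoSel1, where there were 0.

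Of the values by label against CD4, those that changed direction were, with confident labels, the same-bin ratios of AgoSel1 (0.936), AgoSel2 (0.768) and Treg (0.769), the neighbour ratios of AgoSel2 (0.970) and Treg (0.995) and the UMI ratio of Treg (0.993). The UMI ratio of AgoSel1 changed direction at or above the median depth (1.00) and against immature CD4 (1.01), that of Treg in bins given 1 type (0.982), and the distance of Pre-Treg in cell bins (-1.10 µm). A change of direction was counted only where the main interval left out equality, so the same-bin ratio of Pre-Treg could not be counted. The causes were not tested. No paired analysis was possible because there was a single sample per group. Depth limits the genes of the smallest label, Treg, where 3 UMIs are 9.47 CPM.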
